A study of Mus musculus with 12 samples.

Results

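The miR-297, miR-466 and miR-669 families are repeat-like mouse miRNAs, and they were taken here as every mature miRNA whose name starts with miR-297, miR-466 or miR-669 followed by a letter or a hyphen. That rule gave 67 of the 1915 mature names counted, with 6 in the miR-297 family, 31 in the miR-466 family and 30 in the miR-669 family. Of these, 43 had enough reads to be tested across all libraries. The other 24 had a mean count of at most 8, and miR-669g and miR-669j had no read in any library.

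The study sequenced miRNAs from the striatum of mice, in 12 libraries that form 4 groups of 3. The R6/2 shTRAX group was R6/2 mice given an adeno-associated virus (AAV) that expresses a short hairpin RNA against TRAX, and the R6/2 control group was R6/2 mice given an AAV with a control short hairpin RNA. The WT shTRAX and WT control groups were wild-type mice given the same pair of viruses. The labels give the strain B6CBAFI/J for all 4 groups, with R6/2 mice mated to females of that strain and named B6CBA-Tg(HDexon1)62Gpb/3J. All mice were injected in both striata at 5 weeks of age and sampled at 10.5 weeks, so all 4 groups had surgery and carried a virus. R6/2 mice carry a fragment of human huntingtin with an expanded repeat and model Huntington's disease with a rapid course. Neither the promoter and serotype of the AAV nor whether replicates were separate animals is given in the sources used here, and p-values measure the spread between these samples, which may be technical. TRAX mRNA is not measured by miRNA counts, so the knockdown was not checked.

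As background, a miRNA is cut from a hairpin whose 5p and 3p arms can each give a mature miRNA, and bases 2 to 8 of the mature miRNA, the seed, pair with target mRNAs. Most hairpins of these families lie as a tandem array in an intron of Sfmbt2, a gene that encodes a Polycomb-group protein and is expressed from the paternal copy in the mouse placenta and early embryo. The array is rodent-specific and is best known for its role in the growth of the placenta. TRAX (gene Tsnax) is the partner of translin, and together they form an RNA-binding complex with RNase activity that has been reported to act on some miRNA precursors.

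The deposited counts named 65 hairpins for the 67 members, and 63 were found by name in the GENCODE annotation of build GRCm38. Of these, 56 lay inside Sfmbt2 (chromosome 2, 10370510 to 10595253, plus strand) and none overlapped one of its exons. They spanned 51.6 kb, from 10466663 to 10518279. The other 7 lay elsewhere, on chromosomes 3, 7, 10 and 13. The hairpins share a simple repeat: a run of alternating T and G, or of C and A, of at least 8 bases was found in 50 of the 63, or 79.4%, against 12.1% of the 2201 miRNA hairpins in the annotation. Their median GC content was 35.6%, against 50.8% over all hairpins.

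RefSeq's table for build GRCm38.p6 held mature sequences for 5 of the 67 members, all from hairpins outside Sfmbt2. They are shown because they make the repeat visible in the mature miRNA, and because they include miR-466k, which was higher in R6/2 control, and miR-466q, which had the lowest fold change of R6/2 over WT under either virus. Capitals mark the seed, and no 2 of the 5 share one, although each mature sequence holds a stretch of alternating UG or CA.
miR-466k (chr3:85467396-85467418, plus strand): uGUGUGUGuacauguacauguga
miR-466q (chr3:28419988-28420007, plus strand): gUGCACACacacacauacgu
miR-466j (chr10:60960802-60960824, plus strand): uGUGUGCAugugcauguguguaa
miR-466i-3p (chr13:17747552-17747573, plus strand): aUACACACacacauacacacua
miR-669n (chr3:115979905-115979924, plus strand): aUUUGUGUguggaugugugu
The hairpin of miR-466k shows the repeat at full length, with its longest run of UG, 22 bases, in capitals.
Mir466k hairpin (chr3:85467377-85467498, plus strand): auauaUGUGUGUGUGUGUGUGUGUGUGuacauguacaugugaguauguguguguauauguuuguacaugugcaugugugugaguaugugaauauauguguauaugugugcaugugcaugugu

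Reads from such copies are hard to assign to one name. Among the 43 tested members, 18 names fell into 7 groups whose counts were equal within 5% or 1 read in every library, so the 43 stand for 32 distinct count profiles. The groups were miR-297a-3p, miR-297b-3p and miR-297c-3p; miR-466b-5p and miR-466o-5p; miR-466d-5p and miR-466n-5p; miR-466m-5p and miR-669m-5p; miR-669a-5p and miR-669p-5p; miR-669a-3p and miR-669o-3p; and the 3p arms of miR-466a, miR-466b, miR-466c, miR-466e and miR-466p. Which hairpin their reads came from cannot be told from the counts, and each group is described once, under its most abundant name.

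Libraries held 13849777 to 16907910 counts on mature miRNAs after 1 row was kept per name, and 1033 to 1106 miRNAs were detected in each. All 9 neuron-enriched miRNAs fixed as markers (miR-124-3p, miR-9-5p and others) were present in every group, at a summed 206214 to 275091 CPM (counts per 1000000 after TMM scaling of the library sizes), and no marker of the other 5 cell types listed was at 0 in a group. Library R6/2 shTRAX replicate 3 stood apart, with a score of 25.2 on the first principal component (33.1% of the variance) against -5.55 to 0.44 in the other 11 libraries, and results that turn on it are given with and without it. Replicates 1 and 2 of R6/2 shTRAX differed by less than the sampling noise over the 29 distinct members with a mean count of at least 10 (chi-square per degree of freedom 0.653). Over all miRNAs at that depth the same pair differed by 29.7 per degree of freedom, so they were kept as separate libraries.

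Summed over the families, with near-equal names counted once, members took 452 to 500.1 CPM of the reads kept, before TMM scaling, in R6/2 shTRAX libraries, 537 to 570.5 in R6/2 control libraries, 185 to 254 in WT shTRAX libraries and 206 to 224 in WT control libraries. The R6/2 libraries of either virus were above every WT library. A single miRNA, miR-669c-5p, made up 55.4% to 65.3% of the members' reads in R6/2 shTRAX, 51.0% to 52.7% in R6/2 control, 34.5% to 40.3% in WT shTRAX and 34.0% to 37.0% in WT control. Leaving miR-669c-5p out, the remaining members summed to 254 to 276 CPM in R6/2 control against 132 to 141 in WT control. Under shTRAX the 157 to 223 of R6/2 overlapped the 111 to 166 of WT. The 157 was R6/2 shTRAX replicate 3. The other R6/2 shTRAX libraries, at 223 and 220 CPM, were above every WT shTRAX library.

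**Figure D1:**
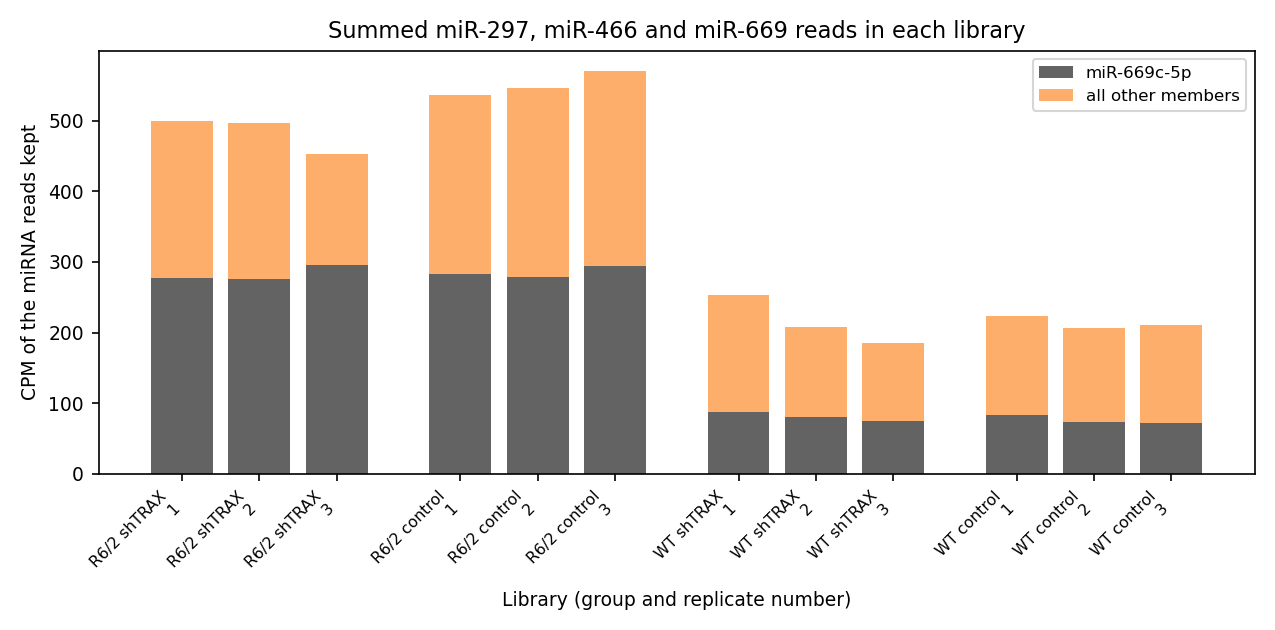
Summed reads of all miR-297, miR-466 and miR-669 members in CPM of the miRNA reads kept, one bar per library, with miR-669c-5p in grey and the other members in orange. R6/2 bars stand at 452 to 570.5 and WT bars at 185 to 254.

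The first comparison set R6/2 control against WT control, to ask how the families differ in the diseased striatum under the control virus. Members were higher in R6/2: 30 of 43 passed the test and none were lower (20 of the 32 distinct profiles), where 7.26% of the 689 miRNAs tested were higher and 3.34% lower (edgeR quasi-likelihood test over 12 libraries, Benjamini-Hochberg adjusted p under 0.05). The members' median log2 fold change was 1.22, against 0.03 over all miRNAs tested, and 42 of the 43 were above 0, as were 52.8% of all. The 3 R6/2 control libraries were all above the 3 WT control libraries for 40 of the 43 (30 of the 32 distinct profiles) and below them for none. Of all miRNAs, 27.3% were higher and 21.6% lower without overlap. Because 8 of the 43 reached the read minimum only in fits that include R6/2, the same count was made over the 35 that also pass in WT libraries alone, and 26 of those were higher with a median of 1.15. Over all 67 members, tested or not, the mean level was higher in R6/2 control for 62, lower for 1 and equal for 4.

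miR-669c-5p, cut from a hairpin at chromosome 2, 10509296 to 10509404, was the most abundant member. Its level was 298, 283 and 293 CPM in the R6/2 control libraries, against 80.6, 71.8 and 69.8 CPM in the WT control libraries. The groups were far apart relative to their spread, and the difference was 3.93-fold (log2 1.98 ± 0.12 SE, adjusted p = 1.96e-06 by edgeR). It had the smallest p of all members and passed under all 23 alternative settings and left-out libraries.

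The next most abundant members are 3p arms, and their differences were smaller. miR-669o-3p, which shares its counts with miR-669a-3p from 11 hairpin copies, had 83.6, 84.5 and 86.3 CPM in R6/2 control, against 53.8, 46.8 and 51.7 CPM in WT control. The 2 groups did not overlap, and the log2 fold change was 0.74 ± 0.18 with an adjusted p of 0.0205 by edgeR, which was 0.0638 when libraries were scaled by their total alone. miR-466d-3p had 45.1, 46.7 and 45.7 CPM in R6/2 control and 23.6, 23 and 24.5 CPM in WT control, with a log2 fold change of 0.95 ± 0.14 (adjusted p = 0.00127 by edgeR). The miR-466e-3p group, which stands for 5 names, had 41.9, 39.7 and 40.9 CPM in R6/2 control and 21.1, 21.7 and 20.8 CPM in WT control, a log2 difference of 0.95 ± 0.17 (adjusted p = 0.00416 by edgeR). For both, the lowest R6/2 control library was well above the highest WT control library.

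The miR-297 members were counted at lower levels. The miR-297a-3p group, the shared 3p product of miR-297a, miR-297b and miR-297c, had 13.2, 11.5 and 14.1 CPM in R6/2 control, against 4.5, 3.79 and 4.53 CPM in WT control. R6/2 libraries were all higher, by 3.03-fold (log2 1.60 ± 0.18, adjusted p = 0.000184 by edgeR). Of the 3 miR-297 5p arms, which keep separate counts, miR-297c-5p was higher (log2 2.41 ± 0.61, adjusted p = 0.0273 by edgeR) at only 1.44 to 1.90 CPM in R6/2 control against 0.262 to 0.377 CPM in WT control. miR-297b-5p did not pass (log2 1.55 ± 0.45, adjusted p = 0.0513 by edgeR), nor did miR-297a-5p (log2 1.33).

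Less abundant 5p arms of miR-466 and miR-669 were higher as well. miR-669k-5p had 9.69, 9.57 and 9.19 CPM in R6/2 control and 2.77, 1.77 and 1.89 CPM in WT control, a 4.41-fold difference (log2 2.14 ± 0.31, adjusted p = 0.00103 by edgeR). miR-669h-5p had 2.86, 4.38 and 2.80 CPM in R6/2 control and 0.980, 0.981 and 0.818 CPM in WT control (log2 1.84 ± 0.26, adjusted p = 0.000909 by edgeR). For both, every R6/2 control library was above every WT control library. miR-466b-5p had the highest fold change of the families, 5.56-fold (log2 2.47 ± 0.46, adjusted p = 0.00427 by edgeR), with 51, 44 and 28 reads in R6/2 control against 14, 4 and 8 reads in WT control. miR-466c-5p rested on 23, 29 and 24 reads in R6/2 control against 7, 5 and 5 reads in WT control (log2 2.37 ± 0.41, adjusted p = 0.00353 by edgeR). Folds of such low counts are imprecise, as their standard errors show.

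The other 10 distinct names past the threshold were miR-466d-5p, miR-466g, miR-466h-5p, miR-466k, miR-466p-5p, miR-669a-5p, miR-669b-5p, miR-669d-5p, miR-669f-3p and miR-669o-5p, with log2 fold changes between 1.06 (miR-466h-5p) and 2.29 (miR-466k). Of the 20 distinct names called, 10 kept an adjusted p under 0.05 whichever of the 12 libraries was left out: miR-297a-3p, miR-466b-5p, miR-466c-5p, miR-466d-3p, miR-466e-3p, miR-466k, miR-466p-5p, miR-669c-5p, miR-669h-5p and miR-669k-5p.

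**Figure D2:**
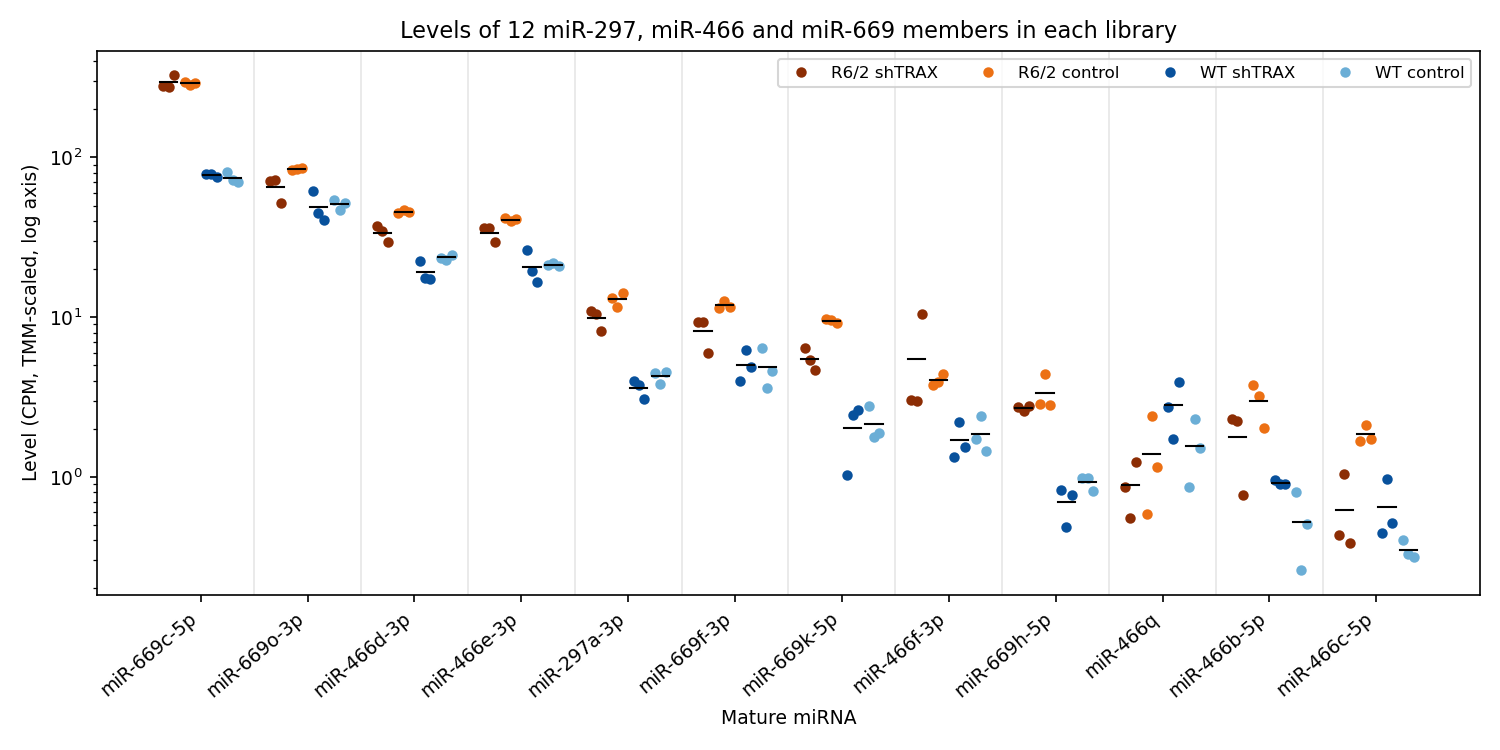
Level of 12 members in each library (TMM-scaled CPM, log axis), with 3 points per group, a black bar at the group mean, and groups ordered R6/2 shTRAX, R6/2 control, WT shTRAX, WT control. miR-669c-5p stands near 300 CPM in R6/2 and near 75 in WT, while miR-466q alone of those shown has a higher mean in WT under both viruses.

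Split by arm, 16 of the 23 tested 5p members were higher with a median log2 fold change of 1.55, and 12 of the 16 tested 3p members were higher with a median of 0.95. With near-equal names counted once, these were 13 of 19 for 5p and 5 of 9 for 3p. By family, 4 of 6 miR-297 members (median 1.60), 15 of 20 miR-466 members (median 1.06) and 11 of 17 miR-669 members (median 1.15) were higher. With near-equal names counted once, these were 2 of 4, 9 of 14 and 9 of 15. Of all 689 miRNAs tested, 7.26% were higher. Several hairpins had a larger difference in the scarcer 5p arm: miR-466b differed by 2.47 on the log2 scale in its 5p arm and by 0.94 in its 3p arm, and miR-466p by 2.11 and 0.94. miR-297b (1.55 and 1.60) and miR-669f (1.28 and 1.28) had about equal values on both arms. These arm differences were not tested, and the 3p counts are shared between hairpins.

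Position along Sfmbt2 was plotted for the 26 tested names that are annotated to a single hairpin there. Their hairpins begin 96.2 to 147.6 kb from the start of the gene, and all 26 had a log2 fold change above 0, between 0.66 (miR-669l-5p) and 2.47 (miR-466o-5p, whose counts equal those of miR-466b-5p). These 2 stand next to each other in the plot, at 98.5 and 102 kb, and miR-466d gave both a 5p arm at 2.01 and a 3p arm at 0.95. Some of the 26 share near-equal counts with names from other hairpins, so the origin of their reads is not known.

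**Figure D3:**
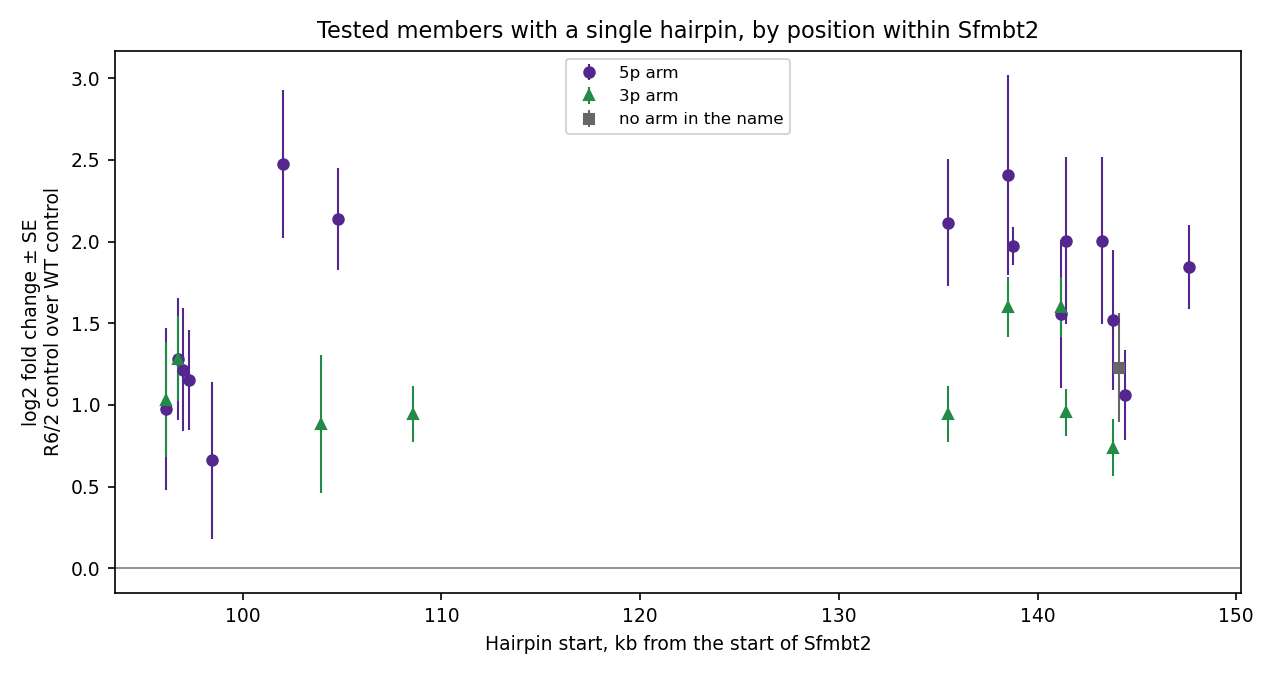
Log2 fold change (± SE) of R6/2 control over WT control against the start of the hairpin, in kb from the start of Sfmbt2. Shown are the 26 tested names with a single hairpin inside the gene. Names with several hairpins were left out. A name with counts near-equal to those of other names is plotted at its own hairpin alone. All points lie above 0, and 5p arms (circles) reach higher than 3p arms (triangles).

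Members outside Sfmbt2 were few. miR-466k on chromosome 3 had 2.64, 2.05 and 2.01 CPM in R6/2 control, against 0.692, 0.196 and 0.440 CPM in WT control, and was higher by 4.90-fold (log2 2.29 ± 0.44, adjusted p = 0.00605 by edgeR). Its reads were 36, 28 and 28 in R6/2 control and 12, 3 and 7 in WT control. Those of miR-466b-5p were 51, 44 and 28 in R6/2 control and 14, 4 and 8 in WT control. Whether any reads counted as miR-466k came from hairpins in Sfmbt2 was not tested. miR-466q, also on chromosome 3 but at another site, had 0.587, 2.41 and 1.15 CPM in R6/2 control and 0.864, 2.29 and 1.51 CPM in WT control, groups that overlap (log2 -0.16 ± 0.52, adjusted p = 0.884 by edgeR). It was the only tested member with a fold change below 0 in this comparison. miR-466i-3p and miR-466j had means of 0.775 and 0.798 CPM in R6/2 control, against 0.382 and 0.437 CPM in WT control, and were too scarce to test.

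The miR-467 family lies in the same Sfmbt2 array and was set beside the members as a related list. All 9 tested miR-467 names (7 distinct) were higher in R6/2 control, with a median log2 fold change of 1.67. Over all 689 miRNAs tested, 7.26% were higher and the median was 0.03. miR-467b-5p had the smallest p (log2 2.15 ± 0.18, adjusted p = 2.04e-05 by edgeR), and miR-467d-5p (1.67), miR-467c-5p (1.57) and miR-467e-5p (1.58) followed.

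Some measurements moved with genotype beside these results. The R6/2 and WT libraries were deposited as 2 separate tables, so a difference in processing between the tables and the genotype cannot be told apart. Low-GC miRNAs ran relatively high in R6/2 control: the Spearman correlation between the GC content of the hairpin arm and the deviation of a library from the mean was -0.37 to -0.29 in R6/2 control libraries and 0.06 to 0.20 in WT control libraries over 661 miRNAs, and the members' arms had a median GC of 36.6% against 48.7% over all. With the GC trend removed by an offset, 18 of the 30 calls remained and the median log2 fold change was 0.97; miR-669c-5p was then at 1.76 and miR-297a-3p at 1.23, both still past the threshold, while miR-466e-3p (0.58, adjusted p = 0.0516 by edgeR) and miR-669o-3p (0.37, adjusted p = 0.155 by edgeR) were not. Of the cell type lists, 2 of 9 neuron-enriched markers were lower in R6/2 control, at a summed 244783 to 275091 CPM in R6/2 control against 246750 to 252891 CPM in WT control, and none of the 29 markers of the other 5 lists was called. The summed microglial and inflammatory markers were 6631 to 15150 CPM in R6/2 control against 11212 to 23976 CPM in WT control, and those of choroid plexus and ependyma 2082 to 8964 CPM in R6/2 control against 2104 to 2484 CPM in WT control. The part of these in the members' result was not tested. In bulk striatum, a change in the share of a cell type and a change in RNA per cell cannot be told apart.

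The second comparison set R6/2 shTRAX against WT shTRAX, which asks the same question under the virus against TRAX. Here 17 of the 43 members were higher and none lower (10 of 32 distinct profiles), where 7.98% of all miRNAs tested were higher and 5.81% lower (edgeR, adjusted p under 0.05). The median log2 fold change was 0.75, against 0.04 over all miRNAs, and 40 of 43 were above 0, as were 53% of all. The groups did not overlap for 18 members (11 of 32 distinct profiles) in the higher direction, against 17.7% of all miRNAs. In the lower direction this held for 1 member, miR-466q, against 12.8% of all. Without R6/2 shTRAX replicate 3, the 2 remaining R6/2 shTRAX libraries were above the WT shTRAX libraries for 39 of the 43 and below them for 1, where 25.4% of all miRNAs were higher and 20.3% lower without overlap. The 2 genotype comparisons contrast different libraries, but both were tested in the same fit over all libraries, so their calls are not independent. Leaving out R6/2 shTRAX replicate 3 moved the count under control AAV from 30 of 43 members tested to 38 of 46. The count over all miRNAs moved from 73 to 210. In the full fit, 15 members were called in both, with near-equal names counted separately. That is 15 of the 30 under control AAV and 15 of the 17 under shTRAX AAV. No share over all miRNAs was set beside this overlap.

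miR-669c-5p again led, with 281, 277 and 326 CPM in R6/2 shTRAX against 79.3, 79.4 and 75.8 CPM in WT shTRAX. The 3.77-fold difference (log2 1.92 ± 0.12, adjusted p = 2.66e-06 by edgeR) differed from that under control AAV by less than its standard error. miR-669h-5p kept its size as well, at 2.75, 2.57 and 2.79 CPM in R6/2 shTRAX against 0.829, 0.485 and 0.771 CPM in WT shTRAX (log2 1.94 ± 0.27, adjusted p = 0.00132 by edgeR). miR-297a-3p had 10.9, 10.5 and 8.14 CPM in R6/2 shTRAX and 3.95, 3.74 and 3.08 CPM in WT shTRAX (log2 1.45 ± 0.18, adjusted p = 0.000774 by edgeR). For these 3 miRNAs each R6/2 library was well above each WT library.

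miR-466d-3p (log2 0.83 ± 0.14, adjusted p = 0.00556 by edgeR), miR-669k-5p (1.44 ± 0.31, adjusted p = 0.0175) and the miR-466e-3p group (0.71 ± 0.17, adjusted p = 0.0235) were also higher in R6/2 shTRAX. So were miR-466d-5p (2.10), miR-466h-5p (1.0) and miR-466m-3p (1.42). miR-466f-3p passed as well (log2 1.69 ± 0.46, adjusted p = 0.0368 by edgeR), but its R6/2 shTRAX levels were 3.04, 2.99 and 10.5 CPM, against 1.34, 2.22 and 1.54 CPM in WT shTRAX. The third library, replicate 3, is the one that stood apart, and without it the log2 fold change was 0.83 and did not pass.

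Some members had smaller fold changes here than under control AAV. miR-466c-5p had 0.435, 1.04 and 0.388 CPM in R6/2 shTRAX and 0.446, 0.969 and 0.514 CPM in WT shTRAX, so the groups overlapped (log2 -0.02 ± 0.43, adjusted p = 0.992 by edgeR). miR-297b-5p was at log2 -0.01 ± 0.50, and miR-466b-5p (0.95 ± 0.44) and miR-669o-3p (0.40 ± 0.18) did not pass. The last 2 turned on R6/2 shTRAX replicate 3. Without it, miR-466b-5p (log2 1.30, adjusted p = 0.0242 by edgeR) and miR-669o-3p (log2 0.54, adjusted p = 0.0307 by edgeR) passed as higher. Whether the 2 genotype differences differ is the test of the interaction, given below, and no member passed it.

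miR-466q ran the other way. Its levels were 0.870, 0.556 and 1.24 CPM in R6/2 shTRAX, against 2.74, 1.73 and 3.92 CPM in WT shTRAX, without overlap. The log2 fold change of -1.66 ± 0.53 did not pass adjustment (adjusted p = 0.0625 by edgeR). It was below 0 in all 23 alternatives and passed as lower in 6 of them, with adjusted p-values of 0.0191 to 0.174 over the 23. Those 6 were DESeq2 (0.0191), no read minimum (0.0490), every precursor row (0.0499), and edgeR without R6/2 shTRAX replicate 3 (log2 -1.96, adjusted p = 0.0486), R6/2 control replicate 1 (0.0493) or R6/2 control replicate 2 (0.0481).

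The count in this comparison moved with single libraries. Without R6/2 shTRAX replicate 3, 30 of 46 members tested were higher and 1, miR-466q, was lower, with a median of 1.03, and 141 of all miRNAs were called in place of 95. Without WT shTRAX replicate 2 or 3 the count was 8 or 7, and in a fit of these 6 libraries alone it was 1, where 2 of all miRNAs were called. miR-297a-3p, miR-466d-3p, miR-669c-5p, miR-669h-5p and miR-669k-5p passed whichever library of the 12 was left out. The GC correlation of R6/2 shTRAX replicate 3 was 0.42, against -0.25 and -0.18 in the other R6/2 shTRAX libraries and -0.07 to 0.07 in WT shTRAX libraries; with the GC offset 17 members were called. Of the marker lists under shTRAX AAV, 3 of 9 neuron-enriched and 2 of 7 microglial and inflammatory markers were lower in R6/2, and 1 of 6 vascular markers was higher. The summed microglial and inflammatory markers were 5269 to 6854 CPM in R6/2 shTRAX, against 7844 to 29481 CPM in WT shTRAX. The part of these in the members' result was not tested.

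**Figure D4:**
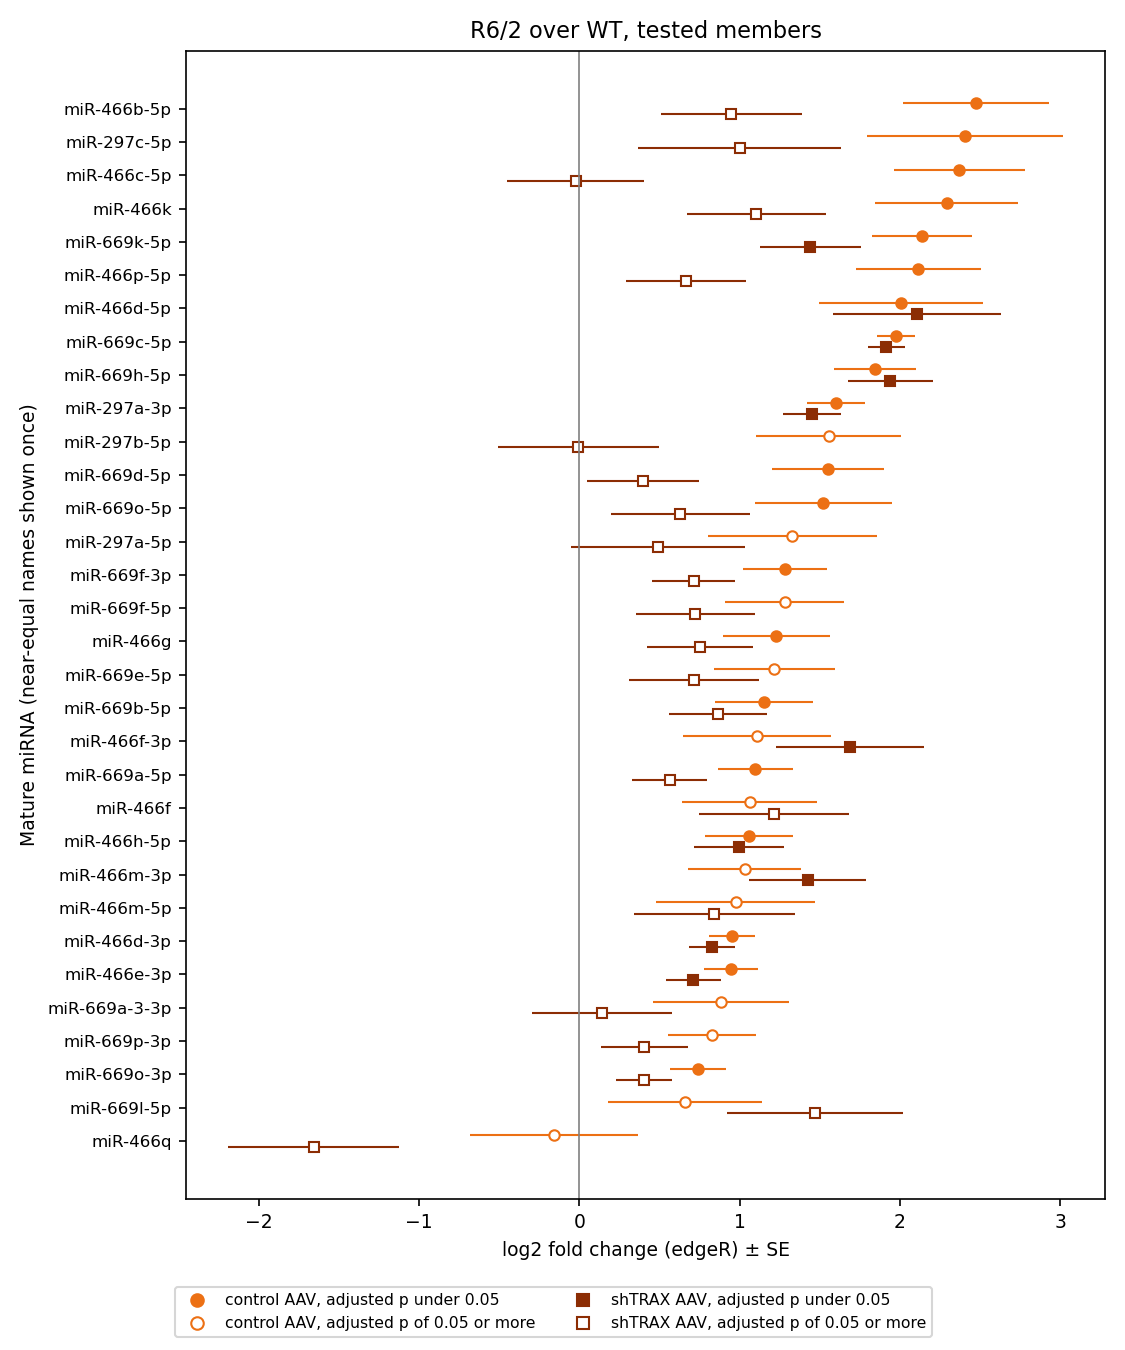
Log2 fold change (± SE) of R6/2 over WT for the 32 distinct tested profiles, under control AAV (orange circles) and shTRAX AAV (brown squares); filled symbols have an adjusted p under 0.05. Under control AAV all but miR-466q lie above 0, and miR-669c-5p, miR-669h-5p and miR-466d-5p sit at about 2 under both viruses.

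The effect of the virus against TRAX was compared next within each genotype. In R6/2, shTRAX against control called none of the 43 members, and 0% of the 651 miRNAs tested were called (edgeR over 6 libraries; smallest adjusted p of a member 0.421). At an unadjusted p under 0.05, 4 members were lower and none higher, where 4.61% of all miRNAs were lower and 5.84% higher; DESeq2 called 1, miR-669k-5p (adjusted p = 0.0366). Members had a median log2 fold change of -0.36, against -0.01 over all miRNAs, with 38 of 43 below 0, where 49.2% of all were above 0. All 3 R6/2 shTRAX libraries were below all 3 R6/2 control libraries for 18 of the 43 (11 of the 32 distinct profiles), where 16.9% of all miRNAs were lower without overlap. Without replicate 3 of R6/2 shTRAX no member was called either, 20 of the 43 were lower without overlap, where 21% of all miRNAs were, and the median was -0.21 over 45 members; with the GC offset the median was -0.10.

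The values by library show how far this went. miR-669k-5p had 6.45, 5.42 and 4.65 CPM in R6/2 shTRAX, against 9.69, 9.57 and 9.19 CPM in R6/2 control, without overlap (log2 -0.76 ± 0.20, adjusted p = 0.421 by edgeR). miR-466d-3p had 37.2, 34.7 and 29.8 CPM in R6/2 shTRAX, against 45.1, 46.7 and 45.7 CPM in R6/2 control, also without overlap (log2 -0.41 ± 0.15, adjusted p = 0.428 by edgeR). The 2 with the largest fold were scarce. miR-466c-5p had 6, 15 and 5 reads in R6/2 shTRAX and 23, 29 and 24 in R6/2 control (log2 -1.52 ± 0.42, adjusted p = 0.421 by edgeR). miR-297b-5p had 13, 11 and 4 reads in R6/2 shTRAX and 26, 24 and 23 in R6/2 control (log2 -1.35 ± 0.40, adjusted p = 0.421 by edgeR).

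These 4 were also the only members among the 83 miRNAs in the authors' deposited list for R6/2. There, in the authors' deposited table, the signed folds of shTRAX over control, a lower value written as minus the inverse ratio, were -2.97 for miR-466c-5p, -2.61 for miR-297b-5p, -1.73 for miR-669k-5p and -1.36 for miR-466d-3p. The adjusted p-values in the authors' deposited table were 0.181 to 0.374.

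miR-669c-5p had nearly the same level with either virus in R6/2, at 281, 277 and 326 CPM in R6/2 shTRAX against 298, 283 and 293 CPM in R6/2 control (log2 0.04 ± 0.12, adjusted p = 0.868 by edgeR). The highest and the lowest of these 6 values both lie in the shTRAX group. miR-466f-3p had the highest fold change of a member, 0.46 ± 0.52, which came from replicate 3, and without that library it was -0.38. miR-466m-3p (0.08) was the third by p of those above 0.

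In WT, shTRAX against control called none of the 35 members tested (smallest adjusted p 0.609 by edgeR), where 0.15% of the 665 miRNAs tested, a single one, was called. At an unadjusted p under 0.05, 1 member was higher and none lower, where 4.06% of all miRNAs were higher and 3.46% lower, and DESeq2 called no member. The median log2 fold change was 0.06, against -0.01 over all miRNAs, with 20 members above 0 and 15 below, where 48% of all were above 0. miR-466p-5p was the member with the smallest p, at 1.40, 1.11 and 1.35 CPM in WT shTRAX against 0.922, 0.589 and 0.629 CPM in WT control (log2 0.83 ± 0.30, adjusted p = 0.609 by edgeR). The other 2 of the higher named here were miR-466q (0.86) and miR-466b-5p (0.78).

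The lower ones in WT were miR-466d-3p (-0.31), miR-297a-3p (-0.25) and miR-669h-5p (-0.41). miR-466d-3p had 22.5, 17.7 and 17.2 CPM in WT shTRAX against 23.6, 23 and 24.5 CPM in WT control. Without WT shTRAX replicate 1, the highest of the 3, its log2 fold change was -0.47 and passed the threshold (adjusted p = 0.0435 by edgeR). miR-669c-5p was at 79.3, 79.4 and 75.8 CPM in WT shTRAX and 80.6, 71.8 and 69.8 CPM in WT control, overlapping groups with a log2 difference of 0.07 ± 0.11.

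**Figure D5:**
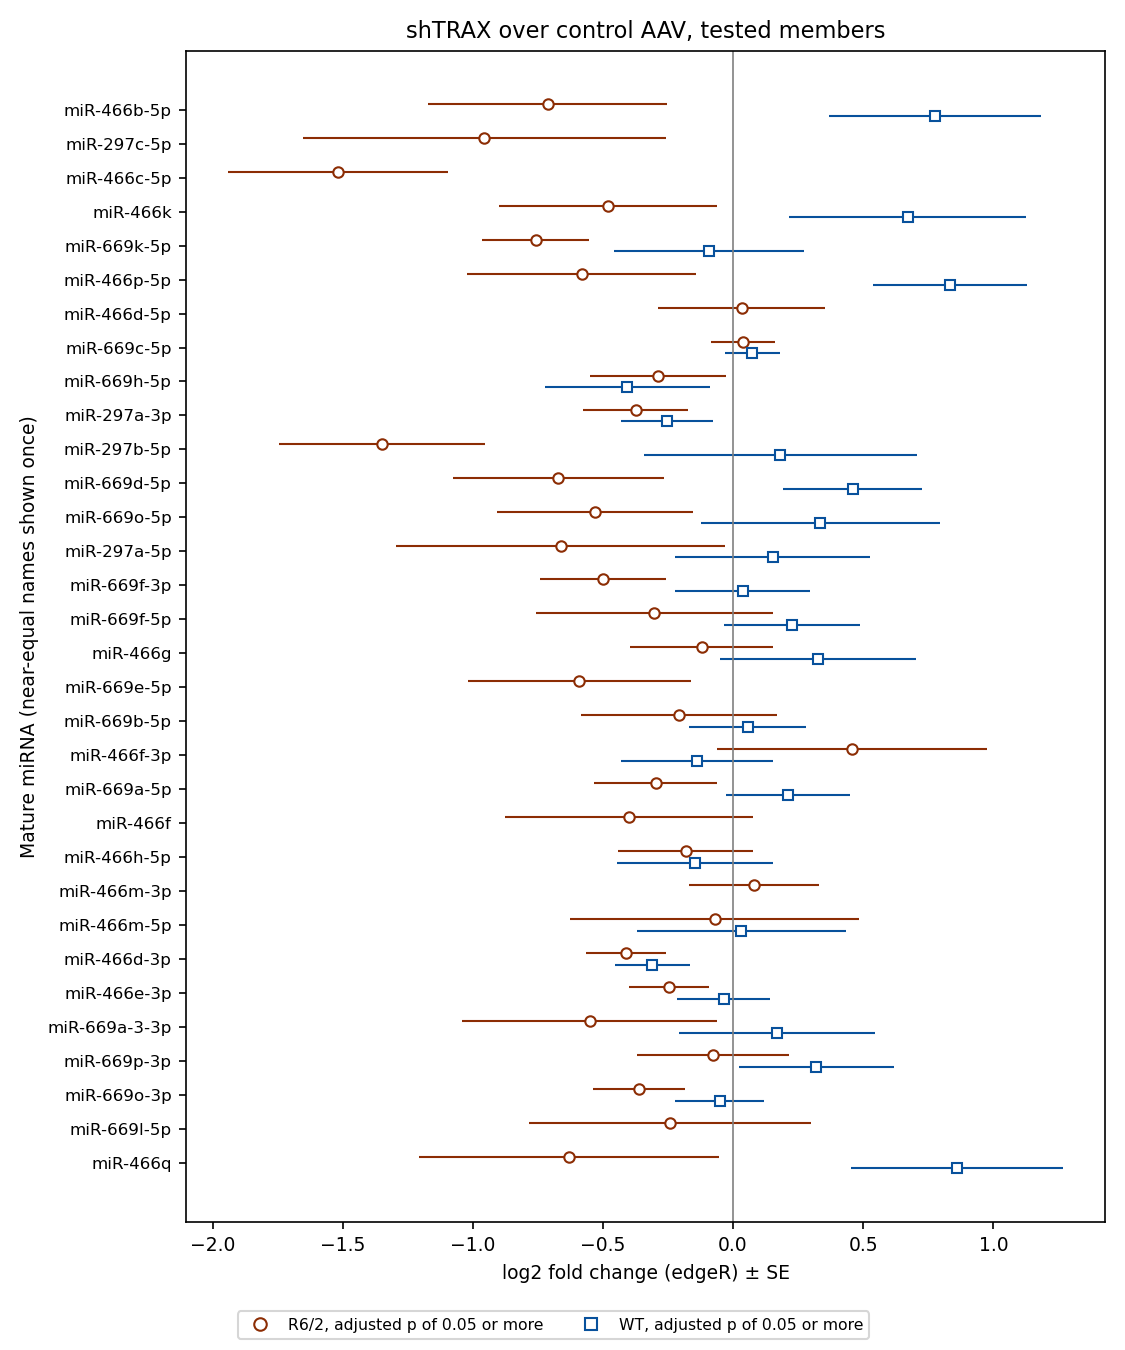
Log2 fold change (± SE) of shTRAX over control AAV in R6/2 (brown circles, 32 distinct profiles) and in WT (blue squares, those tested in WT); open symbols mark an adjusted p of 0.05 or more, which holds for every point. R6/2 points lie mostly left of 0, with a median of -0.36 over the 43 names, and WT points lie on both sides, with a median of 0.06 over 35 names.

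The difference of the shTRAX effects, R6/2 minus WT, was tested over all 12 libraries, and it equals the difference between the genotype comparisons under the 2 viruses. No member passed (smallest adjusted p 0.455 by edgeR), 0% of the 689 miRNAs tested were called, and DESeq2 called no member. At an unadjusted p under 0.05, 6 members were lower and none higher, where 3.77% of all miRNAs were lower and 5.08% higher. The median over the members was -0.34, against -0.02 over all miRNAs, with 36 of 43 below 0, where 48.5% of all were above 0. That median was -0.17 without R6/2 shTRAX replicate 3 and -0.10 with the GC offset.

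miR-466c-5p had the smallest p here too, at log2 -2.39 ± 0.60 (adjusted p = 0.455 by edgeR), followed by miR-466p-5p (-1.45 ± 0.54) and miR-466b-5p (-1.53 ± 0.64). These 3 are the scarce 5p arms that had some of the largest genotype differences under control AAV. Both results use the same R6/2 control and WT control libraries, so they are not separate observations. Above 0, the smallest p values belonged to miR-669l-5p (0.81), miR-466f-3p (0.58) and miR-466m-3p (0.39). For miR-669c-5p the difference was -0.06 ± 0.16.

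The miR-467 list gave values on the same sides. In R6/2 shTRAX against WT shTRAX, 8 of 9 were higher (6 of 7 distinct) with a median log2 fold change of 0.93. Over all miRNAs tested, 7.98% were higher and the median was 0.04. shTRAX called none of the miR-467 names in R6/2 (median -0.57) or in WT (0.07 over 7 tested). The medians over all miRNAs were -0.01 in R6/2 and -0.01 in WT.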

How the data were processed

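The authors deposited raw read counts per pair of mature miRNA and precursor (2059 rows) for the R6/2 and the WT libraries in separate tables, with RPM values, a signed fold change (used as a score), p-values and adjusted p-values, per the file headers. The submitters' processing notes name build GRCm38, Trimmomatic and bcl2fastq 2.20. Aligner, counter and use of molecular identifiers are not stated there. The labels name either of 2 RNA extraction methods without saying which sample had which.

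The precursor row with the highest mean was kept per mature name. Counts were tested with edgeR 4.0.16 (quasi-likelihood, TMM, read minimum of 10 in filterByExpr, p-values adjusted over all miRNAs by Benjamini-Hochberg, threshold 0.05), over 12 libraries for genotype and interaction and over 6 for shTRAX. CPM was computed here and is not the deposited RPM. DESeq2 1.42.0 and limma 3.58.1 on log2(RPM + 1) were alternatives. Procedures were tested on simulated counts.

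Members and lists were chosen with earlier results of these data known. Named are, with near-equal names counted once, up to 20 higher and 10 lower members per genotype comparison by smallest p; for shTRAX and the interaction, 3 higher and 3 lower; the 3 most abundant; 4 outside Sfmbt2; and members of the deposited list. The miRNAs miR-297a-5p, miR-466o-5p and miR-669n, and single arms given for comparison, were named after their values were seen. Hairpin positions are from GENCODE release 21, sequences from RefSeq.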

Additional observations from a re-analysis of the deposited data

How the results depend on the processing

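For R6/2 control against WT control, 30 members were called. Leaving out 1 library at a time gave 18 to 38 and medians of 1.12 to 1.27. The 18 came without R6/2 control replicate 2. The 38 came without replicate 3 of R6/2 shTRAX, where 210 of all miRNAs were called in place of 73. The count was 19 with near-equal names merged, 18 with offsets for hairpin-arm GC and 16 with both the replicate block and those offsets. The median was 1.15 with library totals alone, 1.03 with no filter, 0.72 with limma on log2(RPM + 1), 1.10 with every precursor row, 1.27 with merged names, 0.97 with GC offsets, 0.97 with block and offsets, and 1.16 with 6 libraries in the fit. For R6/2 shTRAX against WT shTRAX, 17 were called, and 7 to 31 with 1 library left out (7 without WT shTRAX replicate 3, 31 without R6/2 shTRAX replicate 3, as 30 higher and 1 lower). The count was 11 with library totals alone, 11 with no filter (10 higher and 1 lower), 10 with limma (median 0.34), 10 with merged names, 8 with block and offsets, and 1 with 6 libraries. For these settings the cause was not tested, beyond fewer names where they were merged and fewer libraries where some were left out.

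For shTRAX against control, DESeq2 called 1 member in R6/2, and leaving out a library gave 0 to 1 in WT. The median of the interaction was -0.10 with GC offsets and -0.10 with the block added. In R6/2, miR-669c-5p turned to -0.0109 with library totals and -0.00842 with no filter, and ranged over -0.029 to 0.0697 with 1 library left out; miR-466f-3p ranged over -0.38 to 0.74 and miR-466m-3p over -0.057 to 0.20, the lowest of each without R6/2 shTRAX replicate 3. For the interaction miR-466f-3p ranged over -0.30 to 0.80. No other direction turned among the miRNAs named by the rule.

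The labels number replicates 1 to 3 in each group, but same-numbered libraries showed no steady shared deviation (correlations -0.31 to 0.27). With 3 libraries per group, these correlations cannot tell whether same-numbered libraries share more than a number. With the replicate block, 24 and 12 members were called for the genotype comparisons and 0, 0 and 0 for shTRAX in R6/2, in WT and their difference. Offsets for mature-sequence GC were not run, since 5 of the 67 members have a mature sequence in the reference table; hairpin-arm GC was chosen in its place after seeing the data. Of the tested members, 12 had a mean under 1 CPM, where counting error is large.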
